A study of Mus musculus with 12 samples.

Results

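The GIMAP family of lymphocyte GTPases was followed through 8 mouse genes, Gimap1, Gimap3, Gimap4, Gimap5, Gimap6, Gimap7, Gimap8 and Gimap9. Its members were taken as every non-control probe that the scanner files name for one of these genes. This gave 10 probes of 55681 on the array, 3 for Gimap4 and 1 for each other gene, and no further probe was assigned to a member by the reference annotation. All 10 probes were well above background on all 12 arrays, so all 8 genes passed the filter on low signals and stood among the 18545 genes tested.

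RNA came from sorted splenic regulatory T cells (Treg) of female C57BL/6 mice, either wild type (CD83 WT, here WT) or carrying a conditional knockout of Cd83 (CD83cKO, here KO). Resting cells (0 h) were compared with cells given anti-CD3 and anti-CD28 antibodies for 3 h, which engage the T cell receptor and its main costimulatory receptor. Each of the 4 groups had 3 one-colour arrays. WT mice were 9 weeks old. KO mice were 10 weeks old for 4 arrays and 21 weeks old for the 2 others, replicate 3 at each time. The labels do not name the Cre driver of the conditional allele. They list 6 mice for the 12 arrays without tying arrays to mice, so a resting and an activated array may share an animal, and p-values measure the spread between arrays.

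GIMAP proteins (GTPases of immunity-associated proteins) share a guanine nucleotide-binding domain and sit largely on intracellular membranes. They are made mainly in lymphocytes, where loss of single members shortens the life of T cells, and their genes lie side by side on mouse chromosome 6. Gimap5, found on lysosomes, is needed for survival of naive T cells, and rodents without it are lymphopenic. Gimap1 is needed for mature T and B cells, Gimap4 has been tied to T cell death, Gimap3 is the closest relative of Gimap5, and Gimap6 binds the autophagy protein Gabarapl2.

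The promoters of 3 genes are shown because these genes moved in opposite directions after activation: Gimap5 and Gimap7 were lower at 3 h, and Gimap6 was higher. Each line gives the 250 bases before the RefSeq start on the gene's own strand, 5′ to 3′, in assembly GRCm38.p6. The windows are chr6:48745947-48746196 on the plus strand for Gimap5, chr6:48718371-48718620 on the plus strand for Gimap7 and chr6:48708245-48708494 on the minus strand for Gimap6. Capitals mark matches on either strand to 6 short motifs.
Gimap5: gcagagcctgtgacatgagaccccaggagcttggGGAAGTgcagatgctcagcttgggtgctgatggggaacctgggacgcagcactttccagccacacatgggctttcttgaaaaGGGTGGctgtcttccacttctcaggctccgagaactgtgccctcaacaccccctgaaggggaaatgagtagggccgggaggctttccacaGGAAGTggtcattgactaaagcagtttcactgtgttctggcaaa
Gimap7: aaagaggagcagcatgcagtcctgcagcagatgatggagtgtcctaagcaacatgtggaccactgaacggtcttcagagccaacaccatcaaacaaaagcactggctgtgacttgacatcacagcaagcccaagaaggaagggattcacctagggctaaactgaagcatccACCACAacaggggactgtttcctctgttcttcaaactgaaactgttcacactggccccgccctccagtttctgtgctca
Gimap6: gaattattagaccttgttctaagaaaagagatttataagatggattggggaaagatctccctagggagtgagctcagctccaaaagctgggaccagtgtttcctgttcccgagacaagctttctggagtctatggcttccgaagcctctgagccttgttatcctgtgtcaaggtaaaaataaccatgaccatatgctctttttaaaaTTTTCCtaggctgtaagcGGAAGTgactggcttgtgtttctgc
The motifs were GGAAGT (ETS), TGTGGT (RUNX), CCACCC (Krüppel-like factors), GTAAACA (FOXO), TGANTCA (AP-1) and GGAAAA (NFAT). Gimap5 held 2 ETS matches and 1 Krüppel-like match, Gimap7 held 1 RUNX match, and Gimap6 held 1 ETS and 1 NFAT match, none of them overlapping. RefSeq gave 9 windows for the 8 genes, Gimap8 having a pair of starts. Of these 9, 5 held the Krüppel-like motif, 3 the RUNX, 3 the NFAT, 2 the ETS and 1 the FOXO motif. Among all 32851 promoters in the table the shares were 28.1%, 14%, 20.4%, 19.7% and 3.17% in that order. No Gimap window held the AP-1 letters, which 6.75% of all promoters did. These matches are descriptions of letters in a window and not of bound sites.

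Because family members resemble each other, their probes were compared. Over all 45 pairs of the 10 probes, the longest run of bases that any 2 shared was 9 of 60. The most similar pair was Gimap7 and Gimap9, with 30 of 53 aligned bases in common, printed below with the shared bases in capitals.
Gimap7: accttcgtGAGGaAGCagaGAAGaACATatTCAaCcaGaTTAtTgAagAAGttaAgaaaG
Gimap9: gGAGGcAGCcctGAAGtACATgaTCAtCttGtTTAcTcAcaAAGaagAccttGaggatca
These 2 genes nonetheless differed in the data, since Gimap7 was lower after activation and Gimap9 was not.

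Values are log2 of the background-subtracted signal minus the 75th percentile of each array, taken over the probes detected on all arrays, so 0 is that percentile. They compare 1 probe between arrays and not different probes with each other. The raw signals of the members ran from 69.5 units (Gimap7, KO replicate 3 at 3 h) to 92700 units (Gimap6, WT replicate 1 at 3 h). No probe was saturated on any array.

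Before the results, 2 features of the arrays matter. The arrays lay on 3 slides: 1 held all 6 KO arrays, and resting and activated WT had 1 each, every slide having its own scan session. Genotype and slide therefore cannot be told apart, nor can activation and slide in WT, whereas activation in KO was measured within 1 slide. Second, KO replicate 3 differed from its group at both times (the 21-week arrays). Relative to the WT mean at 0 h, 12 T cell markers were lower on average by 1.95 (log2) at 0 h and by 2.86 at 3 h there, while 6 plasma cell markers were higher by 4.76 and 5.28. On the 4 arrays from 10-week KO mice the T cell markers stood at -0.60 to -0.28 and the plasma cell markers at 0.43 to 1.62. Results on the members are therefore given over all 12 arrays and over the 10 arrays without those 2.

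The labels were checked on marker genes. Cd83 was lower on all KO arrays (0.23 to 0.75 at 0 h, 1.06 to 1.92 at 3 h) than on all WT arrays (2.17 to 2.39 and 3.65 to 4.21). Whether its probe lies in the deleted part is not stated in the sources used here. Of 10 Treg markers, 7 were well above background on all 12 arrays, among them Il2ra, Ikzf2, Ctla4 and Tnfrsf18. Itgae was so on 4 KO and 6 WT arrays, Gpr83 on 3 and 3, and Foxp3, the defining Treg factor, on 6 KO arrays and 0 WT arrays. The defining transcript of the labelled cell type was thus not well above background in WT. Set against their WT level at 0 h, the 10 Treg markers averaged -2.86 and -2.39 on the 21-week arrays and -0.25 to 0.40 on the 10-week KO arrays. That average includes Foxp3, which went the other way. Foxp3 read -9.42 to -8.63 in WT at 0 h, -6.27 to -4.09 on the 10-week KO arrays and -2.86 and -3.16 on the 21-week arrays. For KO against WT at 0 h, 9 of the 10 markers were below 0, with medians of -1.52 over 12 arrays and -0.5 over 10. At 3 h Foxp3 was higher in KO by 5.10 over 12 arrays (limma adjusted p = 0.02). All 12 T cell markers were detected on every array.

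After 3 h of activation most of the family was lower in WT cells. Without the 21-week arrays, 5 of the 8 genes fell (Gimap5, Gimap7, Gimap4, Gimap8 and Gimap1), Gimap6 rose, and Gimap3 and Gimap9 did not pass the test. In that fit 54.2% of 19116 genes were called (30.9% fell and 23.3% rose). Over all 12 arrays the differences were the same to 2 decimals and only Gimap5 was called, as a fall, against 29.9% of 18545 genes (16.6% fell and 13.3% rose). With the WT groups fitted alone, 6 members were called, against 63.3% of genes. The median difference of the 8 genes was -0.63, beside -0.136 for all genes tested. Fewer cells of a type and less RNA per cell cannot be told apart in these bulk samples.

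Gimap5, the survival GTPase of naive T cells, showed the largest fall of the family. It stood at 0.95, 1.13 and 1.18 on the WT arrays at 0 h and at -0.13, -0.01 and -0.28 at 3 h. All resting arrays were above all activated ones. The difference was -1.22 (95% interval -2.10 to -0.35 over 12 arrays, limma adjusted p = 0.0405), which is 2.33-fold lower. Without the 21-week arrays the interval narrowed to -1.48 to -0.97 (limma adjusted p = 6.1e-05). The call over 12 arrays was lost without any single WT array, with adjusted p from 0.0813 to 0.115, and with 6 other settings, among them quantile normalization and the authors' deposited log2 table. Over all alternatives the adjusted p ran from 1.4e-05 to 0.221.

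Gimap7 read -1.0, -1.06 and -0.88 at 0 h and -1.67, -2.03 and -2.12 at 3 h in WT. The groups did not overlap, and the activated arrays were 1.94-fold lower on average. Its difference was -0.96, with an interval of -1.32 to -0.59 and a limma adjusted p of 0.0013 over 10 arrays, and -2.54 to 0.62 and 0.341 over 12.

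Gimap4, tied to T cell death, went from 3.54, 3.30 and 3.47 at 0 h to 2.86, 2.63 and 2.61 at 3 h. Every activated array lay below every resting one. The fall was 0.74 ± 0.115 (SE, limma adjusted p = 0.00101) over 10 arrays and not called over 12 (0.251). Its other 2 probes, which lie 5′ of the one used, gave -0.41 and -0.39 (adjusted p = 0.0273 and 0.0321 over 10 arrays). All 3 probes thus pointed the same way, with a smaller difference at the pair of dimmer ones.

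Gimap8, the largest family member, which carries several GTPase domains, read 2.30, 2.31 and 2.36 at 0 h and 1.70, 1.73 and 1.57 at 3 h. Gimap1 read 2.92, 2.90 and 3.05 at 0 h and 2.39, 2.34 and 2.32 at 3 h. For both genes the activated arrays formed a tight group below the resting ones. The differences were -0.66 (limma adjusted p = 0.000732) for Gimap8 and -0.60 (0.000398) for Gimap1 over 10 arrays, and 0.468 and 0.262 were the adjusted p-values over 12.

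Gimap6, the partner of Gabarapl2, went the other way. It read 4.39, 4.26 and 4.47 at 0 h and 5.06, 5.0 and 4.97 at 3 h in WT. All activated arrays were above all resting ones, by 0.63 on average (95% interval 0.42 to 0.85, 1.55-fold, limma adjusted p = 0.000712 over 10 arrays, 0.332 over 12).

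The remaining pair moved little. Gimap3 read 4.83, 4.60 and 4.78 at 0 h and 4.58, 4.56 and 4.45 at 3 h, a difference of -0.20 with an interval of -0.45 to 0.04 over 10 arrays. Gimap9 read 0.71, 0.57 and 0.69 at 0 h and 0.60, 0.72 and 0.71 at 3 h, a difference of 0.02 with an interval of -0.20 to 0.25. Gimap9 was the one member whose WT groups overlapped. The other 7 did not overlap, 6 lower and 1 higher at 3 h. The same was true of 68.5% of all genes tested (39.4% lower, 29% higher), so such separation was common on these arrays.

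**Figure D1:**
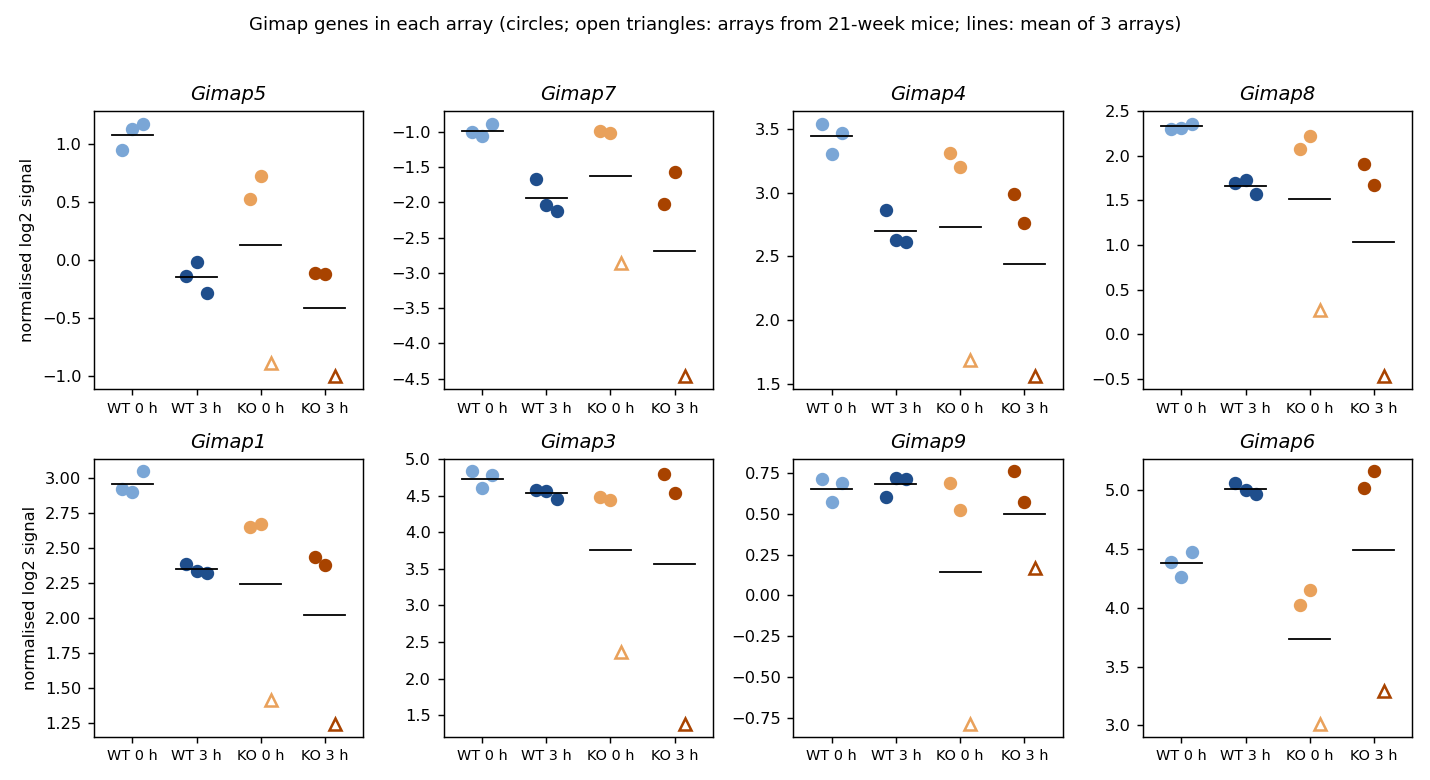
Normalised log2 signal of each Gimap gene (vertical axis, own scale per panel) on each array of the 4 groups; circles are arrays from 9- or 10-week mice, open triangles the 2 arrays from 21-week KO mice, and lines the mean of 3 arrays. Gimap6 stands higher at 3 h than at 0 h, Gimap5, Gimap7, Gimap4, Gimap8 and Gimap1 stand lower, and the triangles are the lowest point of their group in every panel.

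In KO cells, measured within 1 slide, the pattern was seen over 10 arrays with fewer calls. Gimap6 rose and Gimap5, Gimap7 and Gimap8 fell, against 45.2% of all genes called (25.7% fell, 19.5% rose). Gimap1 (-0.25, limma adjusted p = 0.0675) and Gimap4 (-0.38, 0.0589) were below 0 without passing the test. Gimap3 (0.21, adjusted p = 0.222) and Gimap9 (0.06, 0.689) also did not pass it. With all 12 arrays none of the 8 genes was called, against 17.2% of all genes, and none reached an unadjusted p under 0.05. No member had groups that did not overlap, against 24.4% of all genes. KO groups hold 2 arrays each in the 10-array fit, whose spread is shared with WT. With all 12 arrays and age as a term, an alternative chosen after seeing the data that takes the age difference to be the same at both times, the same 4 genes were called in KO, against 38.5% of all genes. They were Gimap5 (-0.54, limma adjusted p = 0.0208), Gimap6 (0.77, 0.00409), Gimap7 (-1.07, 0.00328) and Gimap8 (-0.49, 0.0119). That fit called 6 members in WT, against 50.3% of genes.

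Gimap5 read 0.53, 0.73 and -0.88 on the KO arrays at 0 h and -0.11, -0.12 and -1.0 at 3 h, the last value of each trio being the 21-week mouse. Among the 10-week arrays the activated values lay below the resting ones. Their difference was -0.75 (95% interval -1.06 to -0.43, limma adjusted p = 0.00315), or -0.54 (0.38) with the 21-week arrays.

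Gimap6 read 4.02, 4.15 and 3.01 at 0 h and 5.02, 5.16 and 3.29 at 3 h. The 21-week array was again the lowest of its trio at both times. The rise was 1.01 (95% interval 0.74 to 1.27, 2.01-fold, limma adjusted p = 0.000327) over 10 arrays and 0.77 (0.278) over 12. Gimap6 had the largest rise of the family in KO as in WT.

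Gimap7 read -0.99, -1.01 and -2.86 at 0 h and -2.02, -1.57 and -4.47 at 3 h, a fall of 0.79 (limma adjusted p = 0.0116) over 10 arrays. Gimap8 read 2.07, 2.22 and 0.27 at 0 h and 1.91, 1.67 and -0.47 at 3 h, a fall of 0.36 (0.0396) over 10 arrays. Both had their lowest values on the 21-week arrays, and the Gimap8 call lay close to the threshold.

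Gimap1 read 2.65, 2.67 and 1.41 at 0 h and 2.44, 2.38 and 1.24 at 3 h. Gimap4 read 3.31, 3.20 and 1.69 at 0 h and 2.99, 2.76 and 1.56 at 3 h. On the 10-week arrays both stood slightly lower after activation. Gimap3 read 4.48, 4.44 and 2.36 at 0 h and 4.80, 4.54 and 1.38 at 3 h. Gimap9 read 0.69, 0.52 and -0.79 at 0 h and 0.76, 0.57 and 0.17 at 3 h. For these 2 genes the 21-week array set the spread, with SDs in KO of 1.21 and 1.90 for Gimap3 against 0.122 and 0.0698 in WT.

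**Figure D2:**
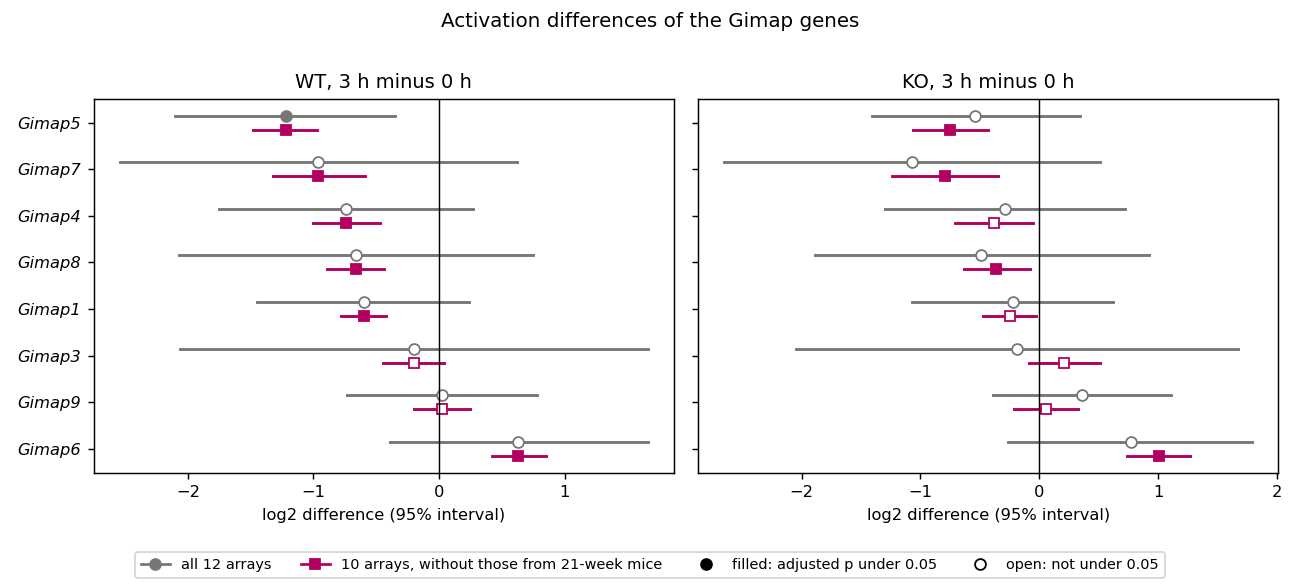
Log2 difference between 3 h and 0 h for each Gimap gene in WT (left) and KO (right), with 95% intervals, over all 12 arrays (grey circles) and over the 10 arrays without the 21-week mice (magenta squares); filled symbols have a limma adjusted p under 0.05. The intervals narrow without the 21-week arrays, where Gimap5 (-1.22 in WT, -0.75 in KO) and Gimap6 (0.63 and 1.01) lie on opposite sides of 0 in both genotypes.

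The activation effect did not differ detectably between genotypes. The difference of effects (KO minus WT) was called for 0 of the 8 genes and, by limma, for 0 of all 18545 genes (688 at an unadjusted p under 0.05). Over 10 arrays, where 0.105% of genes were called, it was above 0 for all 8 members, from 0.04 for Gimap9 to 0.48 for Gimap5. The interval for Gimap5 was 0.07 to 0.88, and its limma adjusted p was 0.464. Of the 8 members, 4 had an unadjusted p under 0.05 over 10 arrays, and the share of all genes at that threshold is not given here. WT activation lies across 2 slides and KO activation within 1, so slide and genotype cannot be told apart in this difference either.

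Resting KO arrays read lower than resting WT arrays on average for all 8 genes, without a call. All 8 differences were below 0, from -0.97 for Gimap3 to -0.51 for Gimap9, with a median of -0.71, against a median of -0.026 over all genes. None was called, and 2.08% of all genes were. At an unadjusted p under 0.05 there was 1 member, and the share of all genes at that threshold is not given here. For 5 genes every KO array lay below every WT array, as did 14.8% of all genes. Without the 21-week array the 8 differences were -0.45 for Gimap5 to -0.02 for Gimap7, with a median of -0.22. None of the 8 was called, against 6.51% of genes. The Gimap4 probes that were not used pointed the other way, at 0.04 and 0.085, beside -0.18 for the one used. At an unadjusted p under 0.05 there were 3 members, again without a share of all genes to set beside them. For Gimap5 the interval was -0.74 to -0.17 (limma adjusted p = 0.0672).

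Markers of other cell types differed between genotypes on these arrays. At 0 h, 9 of 11 monocyte and macrophage markers rose in KO over 12 arrays and 9 over 10, against 1.82% and 4.73% of all genes, and none fell. Their mean shift from the WT level at 0 h was 1.88 to 2.28 on the 3 resting KO arrays, and their summed linear level was 24.6 to 34.7 there and 6.96 to 9.53 in resting WT. At 3 h, 8 rose over 12 arrays and 7 over 10, against 1.26% and 1.34% of all genes, with summed levels of 5.98 to 9.71 in KO and 1.74 to 2.23 in WT. The 5 erythroid markers tested stood at 2.77 to 3.48 in resting KO and -1.23 to 1.08 in resting WT, with summed levels of 31.1 to 58.8 and 3.30 to 13.1, and 0 were called. All 11 monocyte and macrophage markers were well above background on every resting array. The part of these markers in the Gimap differences was not tested.

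In activated cells the direction depended on the 21-week array. With it, all 8 genes read lower in KO (-0.96 to -0.18, median -0.42, 0 called against 1.45% of genes). Without it, 7 of the 8 read higher, and the differences ran from -0.01 for Gimap9 to 0.18 for Gimap4, again with 0 called, against 1.85% of genes. The 95% intervals over 10 arrays lay within -0.26 to 0.55 for all 8 genes, so differences up to the size of those bounds remain possible.

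The size of the 21-week deviation differed among members. Against the mean of the 10-week arrays at the same time, the 21-week array was at a difference of -2.10 (Gimap3) to -1.08 (Gimap6) at 0 h and of -3.29 (Gimap3) to -0.50 (Gimap9) at 3 h. The medians were -1.54 and -1.56, while the medians over all genes were -0.06 and 0.02. Age, 1 library and the marker shifts named above coincide on these arrays and cannot be told apart.

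The family's mean shift from the WT level at 0 h ran beside that of the 12 T cell markers. In WT after activation the Gimap genes stood at -0.40, -0.46 and -0.54 and the T cell markers at -0.48, -0.60 and -0.54. On the 10-week KO arrays the Gimap mean was -0.23 and -0.21 at 0 h and -0.35 and -0.40 at 3 h, beside T cell marker shifts of -0.39 and -0.28, then -0.51 and -0.60. On the 21-week arrays it was -1.80 beside -1.95 at 0 h and -2.11 beside -2.86 at 3 h. The summed linear level of the 12 markers was 209 to 238 in WT at 0 h and 151 to 168 at 3 h, and in KO 63.4 to 181 and 33.0 to 164. The part of the T cell marker shift in the Gimap differences was not tested. Of those markers, Thy1 (-1.79) and Lck (-1.49) fell in WT over 12 arrays, where 16.6% of all genes fell. Over 10 arrays 7 of the 12 fell and 1 rose, against 30.9% and 23.3% of all genes.

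**Figure D3:**
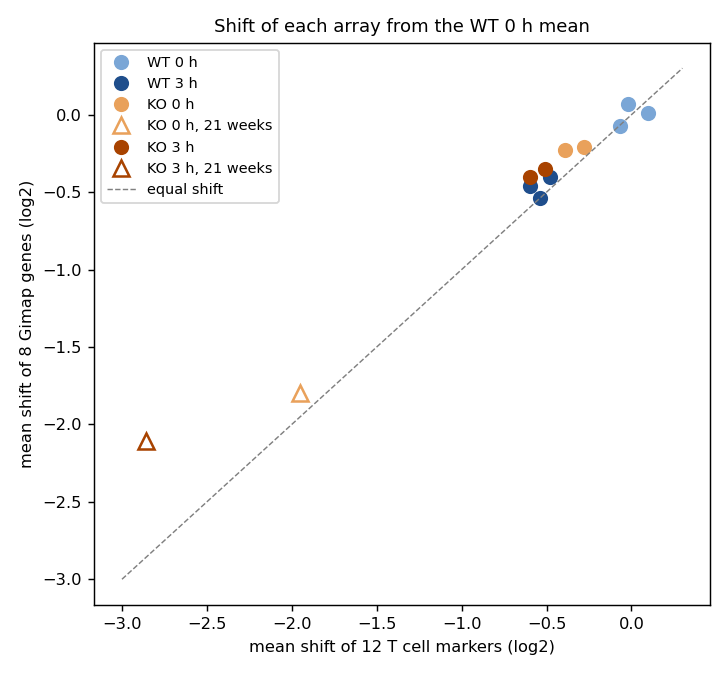
Mean log2 shift of the 8 Gimap genes (vertical) against that of 12 T cell markers (horizontal) on each array, both relative to the WT mean at 0 h; open triangles are the 21-week KO mice and the dashed line marks equal shifts. The 10 other arrays lie between -0.60 and 0.10 on both axes, and the triangles lie at -1.95 and -2.86 on the horizontal axis.

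The contrast between Gimap6 and the other members can be read within each array, where any shift common to the array cancels. The log2 ratio of Gimap6 to each other member was set to 0 at its WT mean at 0 h. Against Gimap5, the 6 resting arrays lay between -0.16 and 0.60 and the 6 activated ones between 1.00 and 2.00. Against Gimap7 they lay between -0.34 and 0.51, and between 1.37 and 2.41. For Gimap1, Gimap4 and Gimap8 too, all 6 activated arrays lay above all 6 resting arrays, the 21-week ones included. For Gimap3 and Gimap9 they overlapped over 12 arrays and not over the 10 (Gimap3 at most 0.05 at 0 h and at least 0.57 at 3 h, Gimap9 0.06 and 0.53). This ratio shows unequal change and not which of its genes changed.

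**Figure D4:**
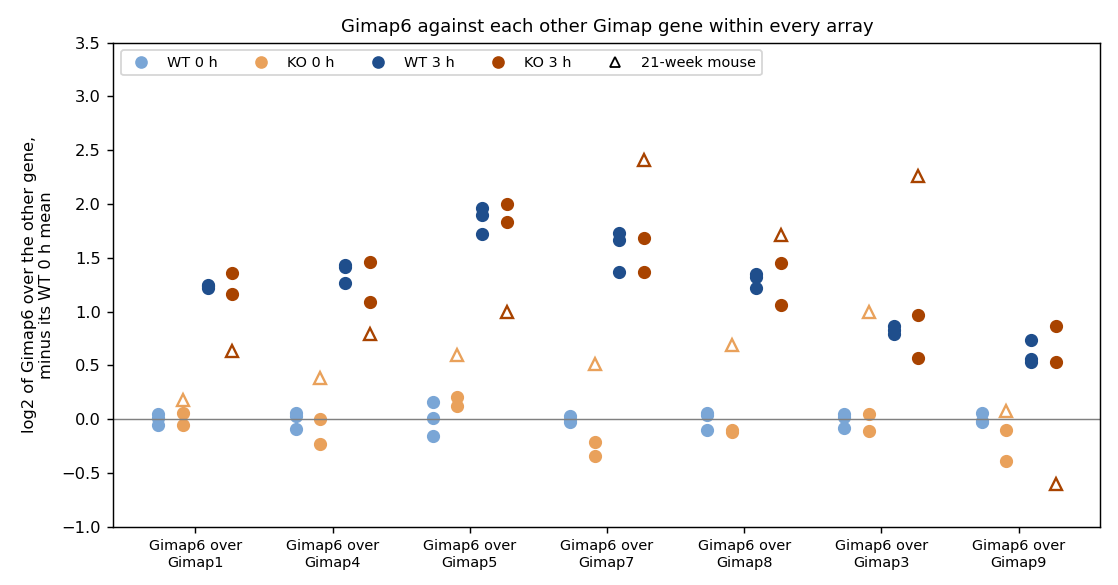
Log2 ratio of Gimap6 to each other Gimap gene within each array, minus its WT mean at 0 h (vertical axis), by group; open triangles are the 21-week KO mice. Activated arrays lie above resting ones for Gimap1, Gimap4, Gimap5, Gimap7 and Gimap8 on all 12 arrays, for example from 1.00 to 2.00 against -0.16 to 0.60 for Gimap5.

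Correlations between members showed the same division. Over 10 arrays Gimap1, Gimap4, Gimap5, Gimap7 and Gimap8 correlated with each other at Pearson r of 0.872 to 0.974, and each with Gimap6 at -0.848 to -0.74. Gimap3 (0.0639) and Gimap9 (0.244) showed little relation to Gimap6. The arrays share their activation state, so these values restate the activation pattern. Over 12 arrays all pairs were positive, the 21-week arrays being low for every member.

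By position the genes that moved alike were not all adjacent. The 10 probes run along chromosome 6 (mm9) from Gimap8 (chr6:48610775-48610834) through Gimap9 (chr6:48627839-48627898), Gimap4 (chr6:48641817-48641876 for the probe used) and Gimap6 (chr6:48651666-48651725). They go on through Gimap7 (chr6:48674271-48674330), Gimap1 (chr6:48693409-48693468) and Gimap5 (chr6:48703501-48703560) to Gimap3 (chr6:48714463-48714522). Gimap6 and Gimap3 are on the minus strand and the other 6 genes on the plus strand. Gimap6, which rose, lies between Gimap4 and Gimap7, which fell, and all 5 genes that fell in WT are on the plus strand.

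**Figure D5:**
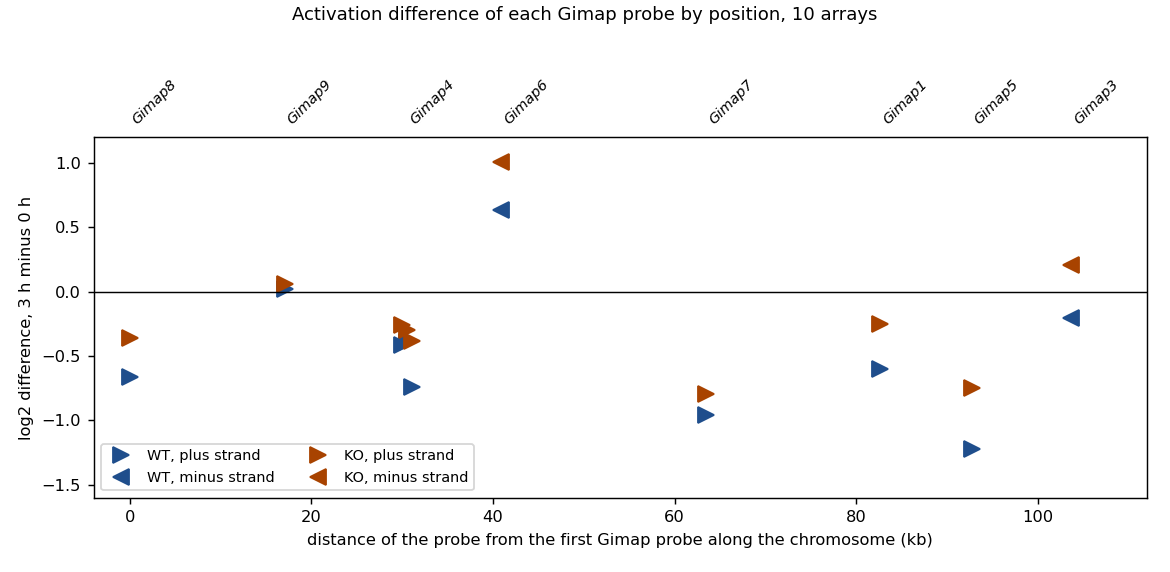
Log2 difference between 3 h and 0 h of each of the 10 Gimap probes (vertical axis) by distance from the first probe in kilobases, over 10 arrays, in WT (blue) and KO (orange); right-pointing symbols are on the plus strand and left-pointing ones on the minus strand. Gimap6 is the highest in both genotypes (0.63 in WT, 1.01 in KO) and lies between Gimap4 and Gimap7.

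Neighbours of the cluster were examined next. Of the 14 listed neighbours that were tested, 7 lie on chromosome 6, from 233 kb before the first Gimap probe to 79.6 kb after the last, and the other 7 proved to lie on chromosome 5 and are not counted. Over 12 arrays 3 of the 7 fell in WT (16.6% of all genes did), namely Zfp467 (-2.84), Lrrc61 (-2.09) and Sspo (-1.32), and 2 fell in KO (9.79% of all genes did), Zfp467 (-1.75) and Lrrc61 (-1.45). Over 10 arrays 6 fell in each genotype, against 30.9% of all genes in WT and 25.7% in KO, among them Repin1 (-0.67 in WT). Those on the far side were Tmem176b (-1.85 in WT) and Tmem176a (-1.81), membrane proteins made in myeloid cells among others. Other tested probes of the region, such as AI854703 (-1.21 in WT and -1.39 in KO over 12 arrays), are not on the list and are not counted. Inside the cluster, between Gimap7 and Gimap1, lie A130009E19Rik and a probe named by an accession alone, also uncounted. Over 10 arrays they stood at -1.44 and -0.84 in WT (limma adjusted p = 0.0124 and 0.00126). In KO they stood at -0.73 and -0.42 (0.232 and 0.0723). None of the 7 listed genes rose, and Atp6v0e2, a proton pump subunit, did not pass the test (0.27 in WT, limma adjusted p = 0.687). The 11 monocyte and macrophage markers were also lower at 3 h, with mean shifts of -0.26 to 0.36 in WT at 0 h and -2.12 to -1.81 at 3 h. In KO these shifts were 1.88 to 2.28 and -0.52 to 0.65. KO against WT at 3 h is a different comparison from activation. There Tmem176a stood at 3.28 over 12 arrays (limma adjusted p = 0.547) and 0.85 over 10, without a call in either. The 11 markers had medians of 2.34 and 2.22 there. The part of the markers in the falls of Tmem176a and Tmem176b was not tested.

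Partners of GIMAP proteins, namely BCL2 family members, glycogen synthase kinase and beta-catenin, and autophagy genes, were listed as 13 genes and all were tested. In WT over 12 arrays 5 rose and 2, Bcl2 and Bad, fell, where 29.9% of all genes were called. Over 10 arrays 6 rose and 2 fell, against 54.2%. The rises were led by Bcl2l11 (3.17, limma adjusted p = 6.9e-05), which encodes the pro-apoptotic protein BIM, Gabarapl1 (1.70) and Map1lc3b (0.91), both of the autophagosome, and Ctnnb1 (0.93), beta-catenin. Bcl2, the survival protein, fell by 1.76. Gabarapl2, the partner of Gimap6, stood at 0.31 (adjusted p = 0.0976 over 12 arrays, 0.0299 over 10). In KO again 5 rose and 2 fell (17.2% of all genes were called), and over 10 arrays 7 rose and 2 fell (45.2%), with Bcl2l11 at 2.69 and Bcl2l1, an anti-apoptotic gene, at 1.21. Bcl2l1 was the one partner that differed between genotypes at 0 h (-0.98 in KO, limma adjusted p = 0.0122, and -0.96 and 0.0141 over 10 arrays), and none did at 3 h.

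Genes of lymphocyte quiescence and recirculation, a list of transcription factors, homing receptors and growth brakes of resting T cells, were counted beside the family. Of 18 tested, 2 rose and 2 fell in WT over 12 arrays (29.9% of all genes were called): Btg2 (0.88) and Foxp1 (0.81), a quiescence factor, rose, and Pdcd4 (-1.26) and Id3 (-2.43) fell. Over 10 arrays 8 rose and 6 fell in WT (54.2% of all genes were called), and 11 rose and 2 fell in KO (45.2%). The median difference over 10 arrays was 0.16 in WT and 0.59 in KO. As a check of activation, 8 of 11 early activation genes rose in WT over 12 arrays and 9 over 10, against 13.3% and 23.3% of all genes. Among them were Nr4a3 (6.05) and Cd69 (2.08). In KO 7 rose over 12 arrays, where 1368 of 18545 genes did, and 9 over 10, against 19.5% of all genes. In both genotypes 0 fell.

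Of 14684 other genes detected on every array, those whose pattern over 12 arrays was most like the family mean were Lat (Pearson r = 0.990), the adaptor of T cell receptor signalling, Usp3 (0.990), a deubiquitinase, and 3 probes named by a sequence accession alone (0.989 to 0.994). Without the 2 low arrays, r of these 5 with the family mean was 0.872 (Usp3) to 0.948, and 0.94 for Lat. Lat read 3.27 to 3.38 in WT at 0 h and 2.26 to 2.43 at 3 h, and 0.15 and -1.04 on the 21-week arrays. Over the 10 other arrays the most alike were Fam89a (0.973), Psme2 (0.972), a proteasome activator subunit, Gpr174 (0.971), a G protein-coupled receptor, Mrpl30 (0.971), a mitochondrial ribosomal protein, and 1 probe to an intergenic region (0.971). The lists had no gene in common. Psme2 and Mrpl30 were not low on the 21-week arrays (3.99 and 3.96 for Psme2), unlike Gpr174 (-2.30 and -3.01).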

How the data were processed

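Labelled RNA from 12 samples was hybridised to one-colour Agilent arrays (genome build mm9, per the file headers), with 20 ng RNA amplified for 1 sample and 40 ng for the others, per the labels' protocols. The authors deposited scanner intensity values made with Feature Extraction 10.7.3.1, per the file headers, background-subtracted within each array, and a table of log2 values. The deposited log2 table has the same distribution in every column, and the sources used here do not say how that was done (Partek is named in the submitters' processing notes).

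Here the processed intensity was taken to log2, controls and outlier-flagged spots were dropped, spots of a probe were averaged, and each array's 75th percentile was subtracted, taken over 19799 probes that were well above background throughout. Between 43.2% and 54.8% of probes were well above background per array. Probes well above background on all 3 arrays of a group were kept, and each gene was read from its brightest such probe. limma 3.58.1 (R 4.3.3) fitted 4 group means, leaving 8 residual degrees of freedom. P-values of all 18545 genes were adjusted by Benjamini-Hochberg, with a threshold of 0.05. The fit was tested on simulated data. Arrays were grouped by genotype and time, and the 5 comparisons were activation in WT and in KO, genotype at 0 h and at 3 h, and the difference of activation effects. The number of arrays limits the precision.

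Named genes were all members, Cd83, from each other list at most 4 called genes by moderated statistic (2 by size where none was called), and the 5 genes most correlated with the family mean. The listed neighbours of the cluster that were tested and lie on chromosome 6 were also named. Bcl2, Bad, Gabarapl2, Il2ra, Ikzf2, Tnfrsf18, AI854703 and A130009E19Rik fell outside this rule and were named after their values were seen. The members and lists were chosen with earlier results of these data known. Alternatives were 12 other settings, leaving out each array and, chosen after seeing the data, age as a term.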

Additional observations from a re-analysis of the deposited data

How the results depend on the processing

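The count of Gimap genes called after activation in WT (1 over 12 arrays) was 0 with the 75th percentile over all probes, quantile normalization, no shift between arrays, normexp background correction, the authors' deposited log2 table or no filter on dim probes, and 6 without the 21-week arrays, with array weights, with age as a term (chosen after seeing the data), or with the 2 WT groups fitted alone (63.3% of genes called there). It was 0 to 1 when each array was left out in turn. With array weights 5344 of all 18545 genes rose and 6872 fell in WT, and 3500 rose and 4299 fell in KO. In KO the count of members (0) became 4 without the 21-week arrays, 4 with age as a term and 2 with array weights. It was 0 to 1 when each array was left out. The 1 was Gimap5 without KO replicate 3 at 0 h, where 1384 of 19101 genes rose in KO and 2351 fell. It was Gimap6 without KO replicate 3 at 3 h, where 3154 of 18570 genes rose and 3749 fell. Both genotype comparisons and the difference of activation effects gave 0 in every alternative run; the last could not be run with only the groups of a comparison, since it uses all 4.

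Directions in WT were kept by all 8 genes in every alternative, except Gimap9 without WT replicate 2 at 0 h (range -0.0199 to 0.0612 over arrays left out). For activation in KO, Gimap3 turned to 0.207 without the 21-week arrays and 0.153 with array weights; the ranges with each array left out were -0.638 to 0.168 for Gimap1, -0.89 to 0.907 for Gimap3, -0.817 to 0.144 for Gimap4, -1.11 to 0.266 for Gimap8 and -0.105 to 0.635 for Gimap9. For KO against WT at 3 h, the values without the 21-week arrays were 0.0576 (Gimap1), 0.142 (Gimap3), 0.179 (Gimap4), 0.0232 (Gimap5), 0.0814 (Gimap6), 0.146 (Gimap7) and 0.122 (Gimap8), and with array weights 0.0152 (Gimap1), 0.126 (Gimap4), 0.0543 (Gimap6), 0.180 (Gimap7) and 0.00172 (Gimap8). With age as a term they were 0.0716 (Gimap1), 0.221 (Gimap4), 0.128 (Gimap5), 0.00961 (Gimap7), 0.0583 (Gimap8) and 0.139 (Gimap9), and at 0 h Gimap7 turned to 0.118. With each array left out the differences at 3 h ran from -0.541 to 0.0576 (Gimap1), -1.57 to 0.142 (Gimap3), -0.536 to 0.179 (Gimap4), -0.424 to 0.0232 (Gimap5), -0.854 to 0.0814 (Gimap6), -1.31 to 0.146 (Gimap7) and -1.07 to 0.122 (Gimap8).

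The difference of activation effects, never called for a member, was -0.207 (Gimap3) and -0.146 (Gimap6) with quantile normalization and -0.203 and -0.138 with the deposited table. With no shift it was -6.91e-05 (Gimap1), -0.367 (Gimap3), -0.249 (Gimap6), -0.207 (Gimap8) and -0.0444 (Gimap9). For Gimap7 it was 0.0844 with normexp, 0.164 without the 21-week arrays and 0.289 with array weights. With each array left out it ran from -0.0357 to 0.770 (Gimap1), -0.686 to 1.11 (Gimap3), -0.0799 to 0.881 (Gimap4), -0.226 to 0.732 (Gimap6), -0.729 to 0.784 (Gimap7), -0.450 to 0.926 (Gimap8) and -0.129 to 0.611 (Gimap9). Beyond the arrays left out, the cause was not tested.

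The median of all genes moved by over 0.1 with scaling in some comparisons: in KO activation to -0.342 without a shift and 0.065 with normexp (main -0.043), for KO against WT at 0 h to -0.212, -0.128 and -0.13 with all probes, quantile and the deposited table (main -0.026), and at 3 h to -0.155, -0.112, -0.121, -0.36 without a shift and 0.148 with normexp (main 0.041). No paired analysis was possible because the labels give no replicate numbers and tie no array to a mouse. All 10 probes were well above background on every array.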
